A study of Mus musculus with 6 samples.

Results

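The genes described here encode the proteins of the cytosolic ribosome, taken by name from the array's own annotation: symbols that begin with Rpl or Rps and end in a number, with at most the letter a, l or x after it, plus Rplp0, Rplp1, Rplp2 and Rpsa. The rule found 80 genes on 180 probes, out of 21245 named genes on 55681 probes. Of these, 49 belong to the large subunit and 31 to the small subunit. A total of 77 passed the filter on dim probes, 46 of the large and 31 of the small subunit, out of 13197 genes tested in the series. The other 3, the paralogs Rpl3l, Rpl10l and Rpl39l, stayed too close to background on all 6 arrays.

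RNA came from the forelimb autopod, the future hand plate, of C57BL/6 mouse embryos at stage E11.5 that carried a Sox9EGFP knock-in reporter. Sox9 is the transcription factor that marks cells condensing into cartilage, and mesenchymal cells were separated by flow sorting according to whether they carried the EGFP signal (positive) or not (negative). Both groups therefore came from reporter embryos, and each of the 3 samples in a group pooled about 10 autopods. The labels do not say whether samples of a group came from separate litters or sorts, so the p-values measure only the spread between these samples. One-colour Agilent arrays were read as log2 signal relative to the 75th percentile of the same array, so that a level of 8 lies 8 doublings above that percentile. Because equal amounts of total RNA were labelled, fewer cells of a type and less RNA per cell cannot be told apart, and ribosome number per cell was not measured.

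The cytosolic ribosome reads messenger RNA and joins amino acids. Its large subunit holds the peptide bond centre and its small subunit holds the decoding centre. Most ribosomal protein messenger RNAs start with a run of pyrimidines, the 5-prime terminal oligopyrimidine (TOP) tract, through which growth signals set their translation, so that their transcript level and their use by ribosomes can move apart. In embryos, loss of Rpl38 alters the axial skeleton and loss of Rpl24 in the mouse gives the Belly spot and tail phenotype.

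The probes of the 4 genes that passed the test are printed first, because the calls rest on these sequences. They are 60-base oligonucleotides as the array files give them, with mm9 positions, written 5′ to 3′ in lower case.
Rps27l, chr9:66795486-66797176, plus strand: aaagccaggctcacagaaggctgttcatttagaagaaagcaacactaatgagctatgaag
Rps2, chr17:42864841-42864900, plus strand: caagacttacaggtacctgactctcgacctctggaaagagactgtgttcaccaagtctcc
Rplp1, chr9:61761259-61761318, minus strand: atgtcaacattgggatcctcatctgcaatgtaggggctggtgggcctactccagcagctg
Rpl18, chr7:52975771-52975829, plus strand: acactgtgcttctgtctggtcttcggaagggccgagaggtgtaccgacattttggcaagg
The printed Rps2 probe lies on the same chromosome as the other Rps2 probe of the array, which is placed at chr17:24857583-24857642, but far from it. Ribosomal protein genes have many processed copies in the mouse genome, and a probe can take up RNA from such a copy, so levels of single members are uncertain to that extent.

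Start sites are shown for Rps27, its paralog Rps27l and Rpl38, to let the tract be seen beside the values. Each is 40 bases before and 20 bases from the annotated RNA start, from RefSeq on build GRCm38.p6, with every CTTTC in capitals.
Rps27, chr3:90213629-90213688, minus strand: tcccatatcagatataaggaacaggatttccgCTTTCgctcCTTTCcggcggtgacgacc
Rps27l, chr9:66946046-66946105, plus strand: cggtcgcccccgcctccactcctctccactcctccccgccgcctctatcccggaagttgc
Rpl38, chr11:114668540-114668599, plus strand: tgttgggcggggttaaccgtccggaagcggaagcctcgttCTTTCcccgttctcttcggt
RefSeq start sequences were matched for 60 of the 80 members. The letters CTTTC, searched on the RNA's own strand within 10 bases of the start on either side, stood in 11 of these 60 members (18.3%) and in 787 of 27025 genes (2.91%). Rps27 and Rpl38 hold the letters in that window. In the Rps27l window they were absent, which says only that these letters are not there.

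Sox9 itself checked the labels. Its level was 3.52, 2.99 and 3.601 on the positive arrays and -0.88, -0.999 and -1.13 on the negative arrays, a log2 difference of 4.37 ± 0.19 (SE, n = 3 a group). Among all genes, limma called 1400 higher and 3217 lower in positive cells at an adjusted p under 0.05, which is 35.0% of those tested, 24.4% in the lower direction. Higher genes made up 30.3% of these calls, and 44.6% after quantile normalization. The median difference of all genes was -0.18, and -0.06 after quantile normalization. Positive replicate 1 was the dimmest array, with a 75th percentile of 126 against 385 to 478 on the others, and no ribosomal protein spot was saturated on any array. The arrays lay on 3 slides, each with 1 positive and 1 negative array. Slide 1 carried positive replicate 1 and negative replicate 2, slide 2 positive replicate 2 and negative replicate 3, and slide 3 positive replicate 3 and negative replicate 1.

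Few ribosomal protein messenger RNAs were called different between the Sox9-EGFP positive and negative cells. The size of their shift stayed unresolved, with medians over the genes tested of 0.18, -0.15 and -0.45 within slides 1, 2 and 3. Only 4 of the 77 genes tested passed the threshold (5.19%, against 35.0% of all genes), each lower in positive cells: Rps27l, Rps2, Rplp1 and Rpl18. Differences ran from -0.67 for Rps27l to 0.34 for Rps12. The median was -0.15 over large subunit genes and -0.09 over small subunit genes, beside -0.18 over all genes, so that relative to all genes the medians were 0.03 and 0.09. Centring the arrays on the tested genes turned the sign of the small subunit median, to 0.06. Other settings placed the members below all genes. In the authors' deposited log2 values the median over all members was -0.20, beside -0.04 over all genes. There 32 of 46 large and 20 of 31 small subunit genes lay below the median of all genes. With array weights the medians were -0.28 over the members and -0.20 over all genes. The 95% interval of the difference lay wholly inside a 1.5-fold change either way for 33 of the 77. For the other 44 it reached past a change of that size. At an unadjusted p under 0.05 there were 8 members, all lower, beside 6075 of the 13197 genes in either direction. A fit with array weights called 33.8% of the members lower, beside 4665 of the 13197 genes.

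**Figure D1:**
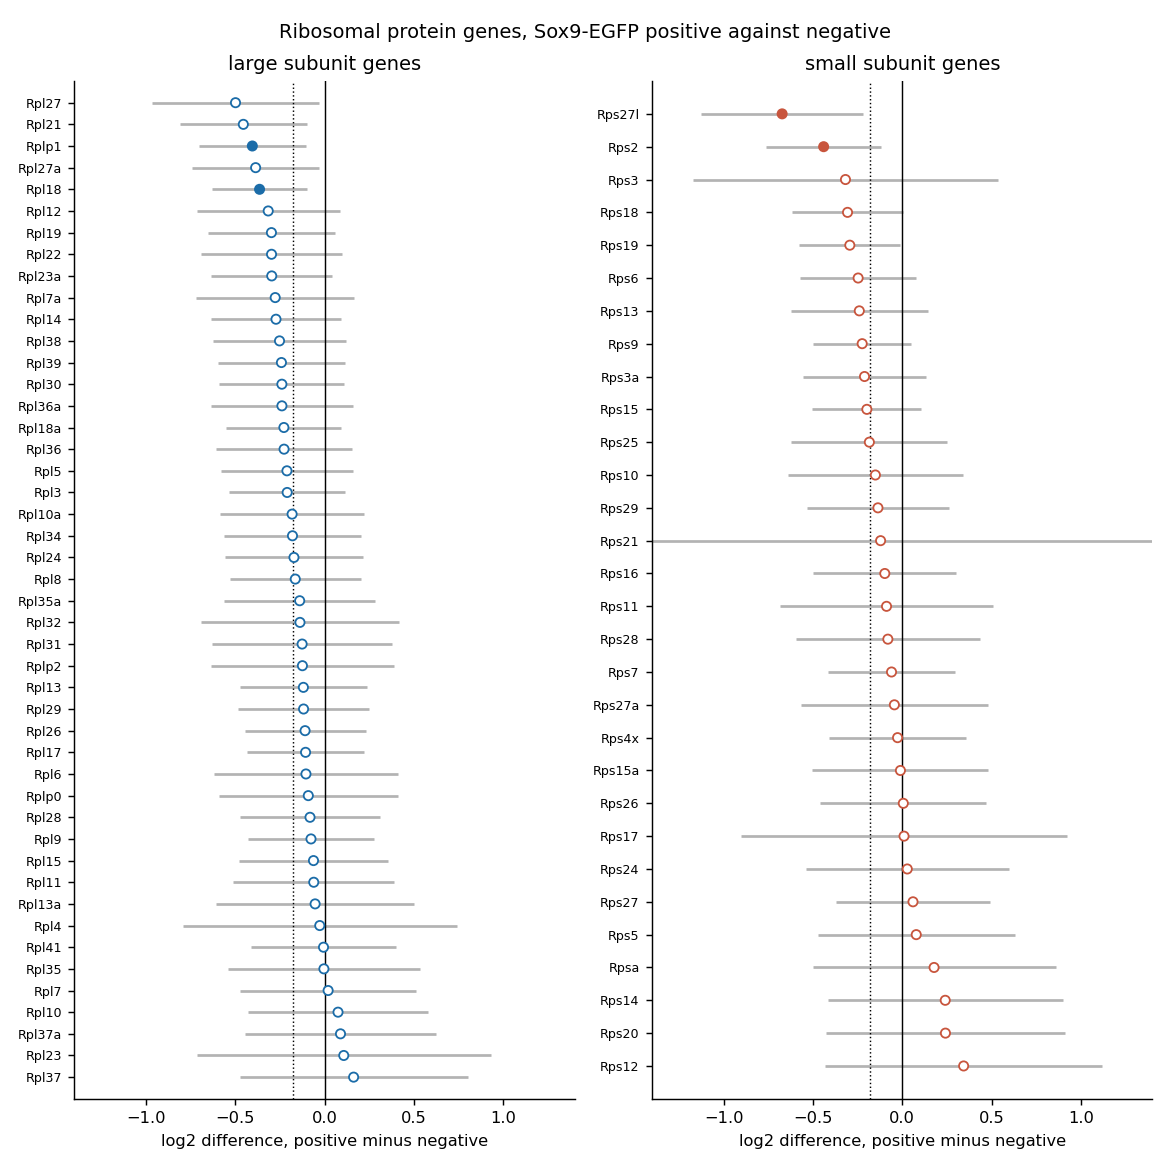
Log2 difference, Sox9-EGFP positive minus negative, for the 46 large subunit genes (left) and 30 of the 31 small subunit genes (right) tested, with 95% intervals from limma as grey bars; filled points passed an adjusted p of 0.05 and the dotted line is the median of all genes, -0.18. The 4 filled points lie left of 0, and the interval of Rps21 runs past the axis, from -2.67 to 2.43.

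Among the large subunit genes, 41 of 46 had a negative difference, beside 8411 of all 13197 genes, and 21 of 46 lay below the median of all genes. The count of negative differences moved with the scaling, to 28 after quantile normalization, 23 after centring and 35 in the deposited values. With array weights it was 46. Of the 46, 2 were called, both lower. Rplp1 encodes an acidic protein of the stalk that recruits elongation factors. Its level was 8.41, 8.30 and 8.08 on the positive arrays and 8.73, 8.63 and 8.65 on the negative arrays. All positive values lay below all negative ones, by 0.40 ± 0.12 (SE, limma adjusted p = 0.046, 1.32-fold lower). Rpl18, another large subunit protein, read 7.89, 7.89 and 7.71 against 8.20, 8.12 and 8.26, again without overlap, and fell by 0.36 ± 0.11 (SE, limma adjusted p = 0.046). Within slides 1, 2 and 3 the difference was -0.22, -0.34 and -0.65 for Rplp1 and -0.22, -0.37 and -0.49 for Rpl18. With the slide as a block the adjusted p was 0.065 for Rplp1 and 0.058 for Rpl18, past the threshold for neither.

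Rpl27 and Rpl21 missed the threshold. Rpl27, a protein whose gene is mutated in some families with Diamond-Blackfan anaemia, read 8.39, 7.97 and 7.67 against 8.47, 8.58 and 8.47, a difference of -0.50 ± 0.19 (SE, limma adjusted p = 0.091). The brightest Rpl21 probe read -0.31, -0.02 and -0.38 against 0.26, 0.04 and 0.36, a difference of -0.45 ± 0.15 (SE, limma adjusted p = 0.055). Groups did not overlap for either gene, as for 8 large and 5 small subunit genes in all (16.9% of the members, against 51.3% of all genes). With the slide as a block Rpl21 passed, at an adjusted p of 0.037. Its probe was the dimmest of the members that were tested.

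The other stalk proteins did not pass the test. Rplp0, the stalk's base and a common reference gene for expression assays, read 9.73, 9.08 and 9.03 on the positive arrays and 9.40, 9.46 and 9.26 on the negative arrays. Its difference was -0.09, with a 95% interval from -0.59 to 0.41. Rplp2, the partner of Rplp1, read 9.74, 9.15 and 8.96 against 9.48, 9.42 and 9.31, a difference of -0.12 with an interval from -0.64 to 0.39. The positive groups of both genes straddled the negative ones, with positive replicate 1 highest. The difference between Rplp1 and its partners was not tested.

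Rpl5 and Rpl11 bind the 5S ribosomal RNA and, when free of ribosomes, hold the ubiquitin ligase Mdm2 and so stabilise p53. Rpl5 read 6.66, 6.33 and 6.13 against 6.59, 6.57 and 6.60, a difference of -0.21 ± 0.15 (SE, limma adjusted p = 0.33). Rpl11 read 9.84, 9.37 and 9.16 against 9.59, 9.49 and 9.47, a difference of -0.06 ± 0.19 (SE, limma adjusted p = 0.83). Neither pair of groups was apart. Rpl22 and Rpl29, surface proteins of the large subunit that a mouse can live without, had differences of -0.30 and -0.12.

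The members known for skeletal phenotypes did not pass the test either. Rpl38 read 8.90, 8.70 and 8.37 in positive cells against 8.97, 8.87 and 8.88 in negative cells, a difference of -0.25 with a 95% interval from -0.63 to 0.12 (limma adjusted p = 0.25). Rpl24 read 9.14, 8.76 and 8.59 against 9.02, 9.003 and 8.97, a difference of -0.17 with an interval from -0.56 to 0.22. Positive replicate 3 was the lowest array for both genes, and both intervals take in 0. Rpl3 and Rpl10, which lie close to the peptide bond centre, had differences of -0.21 and 0.08. Rpl13a, known for leaving the ribosome to silence inflammatory messages, and Rpl39, a small protein of the exit tunnel, had differences of -0.05 and -0.24.

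In the small subunit 22 of 31 genes had a negative difference, and 11 lay below the median of all genes. The count of negative differences was 16 after quantile normalization, 12 after centring, 24 in the deposited values and 30 with array weights. Of the 31, 2 were called, both lower. Rps27l, a paralog of Rps27 and a known target of p53, showed the most negative difference among the members. Its level was 6.61, 6.24 and 5.93 on the positive arrays and 6.92, 6.84 and 7.05 on the negative arrays. The groups were apart, with a fall of 0.67 ± 0.19 (SE, limma adjusted p = 0.035, 1.59-fold lower). Within slides the difference was -0.22, -0.81 and -0.99, and with the slide as a block the adjusted p was 0.043. Rps2, a protein at the entry of the messenger RNA channel, read 8.58, 8.35 and 8.21 against 8.90, 8.74 and 8.82, and fell by 0.44 ± 0.13 (SE, limma adjusted p = 0.045). Its differences within slides were -0.16, -0.47 and -0.70, and with the slide as a block the adjusted p was 0.066.

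The 4 calls depended on single arrays. Leaving out positive replicate 2, positive replicate 3 or any of the 3 negative replicates lost all 4 calls, with adjusted p from 0.066 to 0.15. Without positive replicate 1, Rps27l (-0.85, adjusted p = 0.010), Rps2 (-0.54, 0.020) and Rplp1 (-0.48, 0.031) passed and Rpl18 did not, at 0.0502. None of the 4 passed after quantile normalization, with Rps27l at -0.35 (adjusted p = 0.097). In the value table that the authors deposited, 4 genes passed, namely Rps27l, Rps2, Rplp1 and Rpl27.

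Rps27l and Rps27 differ at few residues, and the pair was set against each other within each array, a comparison that does not depend on scaling an array as a whole. Rps27 itself read 9.30, 8.79 and 8.68 on the positive arrays against 8.90, 8.89 and 8.81, a difference of 0.06 ± 0.18 (SE). The log2 ratio of Rps27l to Rps27 was -2.68, -2.55 and -2.75 on the positive arrays and -1.98, -2.05 and -1.76 on the negative arrays. The groups were apart by -0.73, a 1.66-fold lower ratio in positive cells, with an exact two-sided permutation p of 0.1, the smallest that 3 against 3 can give. Quantile normalization, which reshapes each array, gave -0.45, and the deposited log2 values gave -0.36. The other paralog pairs could not be compared. Rpl3l, restricted to muscle, and Rpl10l and Rpl39l, known from testis, were not well above background on any of the 6 arrays, and their readings on the dim positive replicate 1 were above those on the other positive arrays.

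The remaining small subunit proteins named by role did not pass the test. Rpsa, which also serves as a laminin receptor, read 9.73, 8.87 and 8.69 against 8.93, 9.07 and 8.76 (difference 0.18 ± 0.28, SE). Rps14 and Rps20 read highest on positive replicate 1, at 10.43 and 10.27, and had differences of 0.24 each. Rps6, the substrate of the S6 kinases, read 8.54, 8.32 and 8.14 against 8.61, 8.50 and 8.62, a difference of -0.25 ± 0.13 (SE, limma adjusted p = 0.20). Rps19, the gene most often mutated in Diamond-Blackfan anaemia, read 6.98, 7.003 and 6.74 against 7.21, 7.24 and 7.15. Its groups did not overlap, and its difference of -0.29 ± 0.12 (SE) had an adjusted p of 0.099. Rps7 and the X-linked Rps4x had differences of -0.06 and -0.03.

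Positive replicate 1 stood apart from the other positive arrays across the family. Relative to the mean of the negative arrays, the median member stood at 0.19 on positive replicate 1, -0.21 on positive replicate 2 and -0.42 on positive replicate 3. Positive replicate 1 was the highest of the 6 arrays for 51 of 77 members, and positive replicate 3 the lowest for 75. Within slides 1, 2 and 3 the median difference was 0.14, -0.17 and -0.45 over large subunit genes and 0.27, -0.12 and -0.42 over small subunit genes. The sign of the family's shift thus differed between slides.

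Without positive replicate 1, all 46 large and all 31 small subunit genes had a negative difference, with medians of -0.33 and -0.29 beside -0.16 over all genes. Then 10 members passed, all lower (7 large, 3 small), which is 12.99% of the members against 24.5% of all genes called lower. They were Rpl12, Rpl14, Rpl27, Rpl27a, Rpl36a, Rpl7a, Rplp1, Rps2, Rps25 and Rps27l. Leaving out positive replicate 3 instead moved the median over all members to 0.0046 with no gene called. The part of the dim array in these values was not tested.

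**Figure D2:**
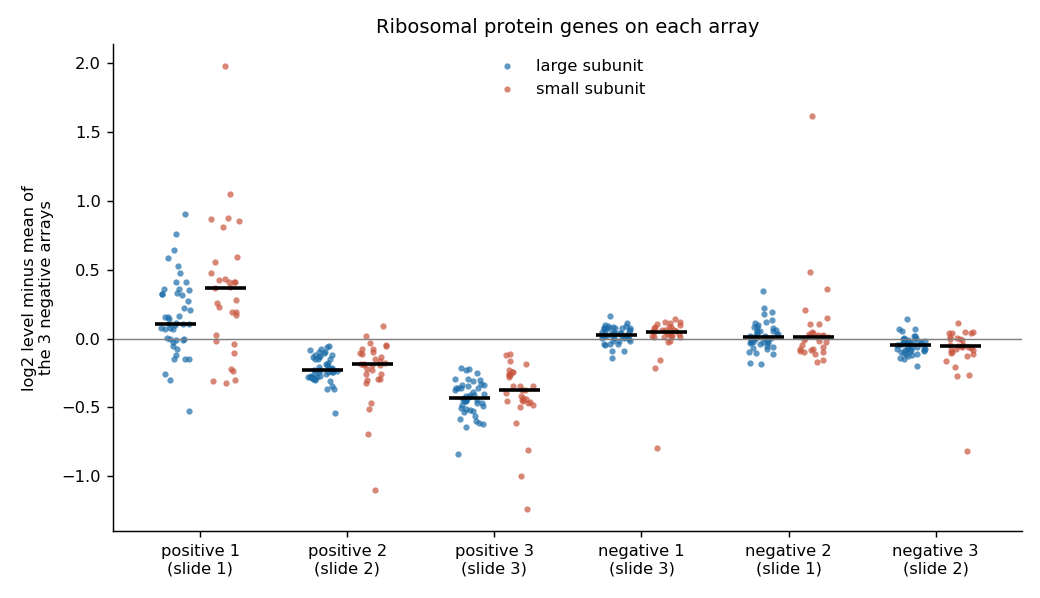
Level of each ribosomal protein gene on each array minus its mean over the 3 negative arrays (log2), with large subunit genes in blue, small subunit genes in red and medians as black bars. Positive replicate 1 is spread upward, positive replicates 2 and 3 lie below 0 for nearly all genes, and the farthest red points are Rps21.

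Several probes per gene gave a second view. Of the 180 probes 175 were tested, 54 genes had more than 1 of them, and the range of differences between probes of a gene had a median of 0.19. At the level of probes, 9 of 175 passed (5.14%), all lower in positive cells, against 13.7% of all probes tested that were called lower. None of the 9 was the brightest probe of its gene, so none stood for its gene in the counts above. They include probes of Rps27a, Rps15a, Rpl30, Rpsa, Rps2, Rpl14, Rpl27 and Rpl21. The probes of Rps27a and Rps15a are counted among the 9 although they passed the filter only through the negative group. No gene had probes called in opposite directions.

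The called probe of Rpl30, a protein that binds its own transcript to block splicing in yeast, lay 1818 bases upstream of the brightest probe of that gene. It read 3.05, 3.19 and 2.86 against 4.12, 3.85 and 4.10, a fall of 0.99 ± 0.15 (SE, limma adjusted p = 0.0092), where the brightest probe had a difference of -0.24. For Rpsa the called probe lay 350 bases downstream of the brightest, and it read -0.01, 0.32 and -0.04 against 1.02, 0.96 and 1.20 (a fall of 0.97 ± 0.15, SE, limma adjusted p = 0.010). The called probes of Rps27a, which encodes a fusion of ubiquitin and a small subunit protein, and of Rps15a lay 2025 bases upstream and 4322 bases downstream. They had differences of -1.37 and -1.14. Both were above background on only 2 of the 3 positive arrays, not on positive replicate 1. Those 2 probes passed the filter through the negative group. The 4 probes were picked for their calls, so their distance from the brightest probe of the gene is a description and was given no test. No position relative to exons was looked up, since no mm9 annotation was used here.

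**Figure D3:**
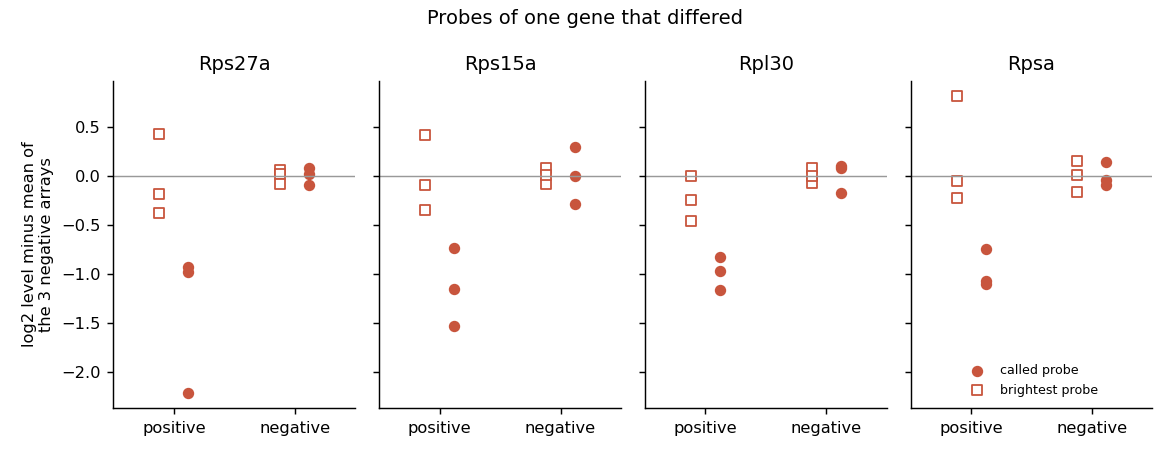
Log2 level minus the mean of the 3 negative arrays on each array, for the called probe (filled circles) and the brightest probe (open squares) of Rps27a, Rps15a, Rpl30 and Rpsa. The 4 called probes were picked for being lower on the positive arrays, and those of Rps27a and Rps15a passed the filter only through the negative group. The called probe of Rpl30 lies 0.99 below 0 on average, while the brightest probes scatter about 0.

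The second probe of Rps2 also passed. It read 7.74, 7.84 and 7.63 against 8.50, 8.29 and 8.51, a fall of 0.70 ± 0.13 (SE, limma adjusted p = 0.017). Both Rps2 probes, placed far apart on chromosome 17, were therefore lower in positive cells on every array. The other called probes of Rpl27 and Rpl21 had differences of -0.62 and -0.61, beside -0.50 and -0.45 for the brightest probes of those genes. The called probe of Rpl14 had a difference of -0.69 against -0.27 for the brightest probe. Averaging all probes of a gene in place of the brightest gave 10 called members, all lower, and turned Rpsa from 0.18 to -0.42 (limma adjusted p = 0.042).

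A further pattern followed slides and not cell groups. On 7 member probes, of 6 genes, both slide 1 arrays exceeded all 4 other arrays by more than 1 log2 unit, which is 4% of the 175 against 1.52% of all probes tested. Rps21, a small protein of the small subunit with a single probe, read 5.56 on positive replicate 1 and 5.20 on negative replicate 2, and 2.34 to 2.78 on the other 4 arrays. Its group difference of -0.12 therefore has a standard error of 1.06 and says little. The other 5 genes were Rpl17 (2 probes), Rpl7a, Rpl13, Rps3a and Rps24, and each also had a brighter probe without such a gap.

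A pair of Rpl7a probes shows the contrast, at the same mm9 position, chr2:26768759-26768818. They differ at 6 of 60 bases, and the first 30 bases are printed with the differing bases in capitals.
Rpl7a A_55_P2001347: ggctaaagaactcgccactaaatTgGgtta
Rpl7a A_55_P2037922: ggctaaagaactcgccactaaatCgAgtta
Counted from the 5′ end of the first probe, the differences are T24C, G26A, T37C, G38A, G41A and A52C. The first probe read 7.59 and 7.43 on slide 1 and 6.06 to 6.66 elsewhere, an excess of 1.11. The second read 4.91 and 5.16 on slide 1 and 1.39 to 2.17 elsewhere, an excess of 3.30.

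Across the 175 member probes, those poor in G and C had more signal on slide 1. The median slide 1 excess was 0.46 over the 48 probes under 40% G and C and 0.14 over the other 127. Over all probes tested these medians were 0.02 and -0.06. Spearman's rho between G and C content and the excess was -0.51 over the 175 member probes, many of which share a gene, and -0.06 over all probes. Every slide 1 value is a mean of the same pair of arrays, so these correlations describe that slide. What set the pattern was not tested. Leaving out the probes brighter by more than 1 log2 unit on both slide 1 arrays gave the same 4 called members. Probes poor in G and C were not left out as a group.

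**Figure D4:**
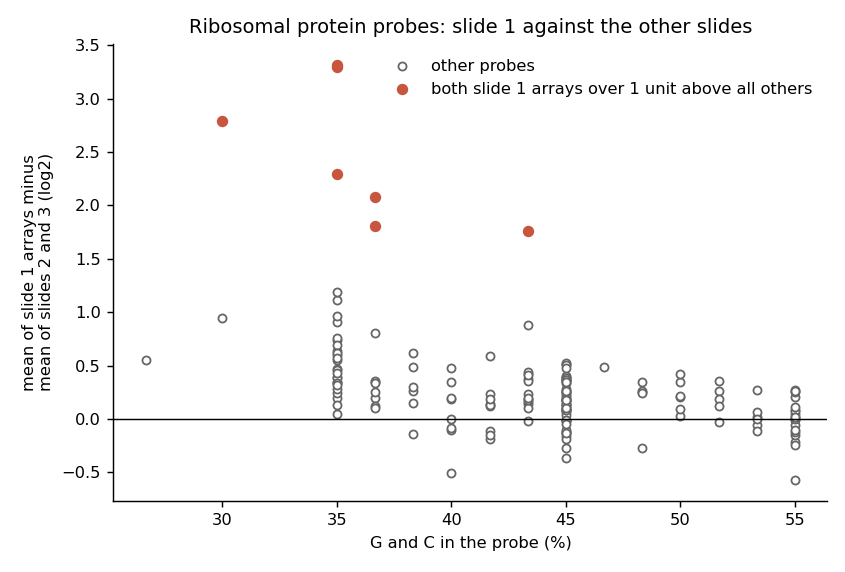
Mean of the 2 slide 1 arrays minus the mean of the other 4 (log2) against the share of G and C in the probe, for 175 ribosomal protein probes; filled points exceed every other array by over 1 unit on both slide 1 arrays. The 7 filled points lie at 30% to 43.3% G and C.

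Other genes of protein synthesis give the members their setting. Limma called 24.4% of all genes lower in positive cells. Of 32 genes of ribosome assembly and the nucleolus, 26 were lower (81.25%) and none higher, with a median of -1.10. They include Nop2, an rRNA methyltransferase (-1.44 ± 0.10, SE, limma adjusted p = 0.00045), and Wdr12, Tsr1 and Bysl, which assemble pre-ribosomes (-1.43, -1.24 and -1.23). Of 26 translation initiation factors 23 were lower (88.5%), with a median of -0.63, among them Eif3j1 (-1.35) and Eif2b3 (-1.29). Of 77 mitochondrial ribosomal proteins, which build a separate ribosome, 55 were lower (71.4%), with a median of -0.57. The cytosolic members, at 4 of 77, had a smaller called share than any of these 3 lists. The difference between lists was not tested. After quantile normalization 23 assembly genes, 8 initiation factors and 20 mitochondrial ribosomal proteins were called lower, and no cytosolic member. Over all genes 1759 of 13197 were called lower in that setting.

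**Figure D5:**
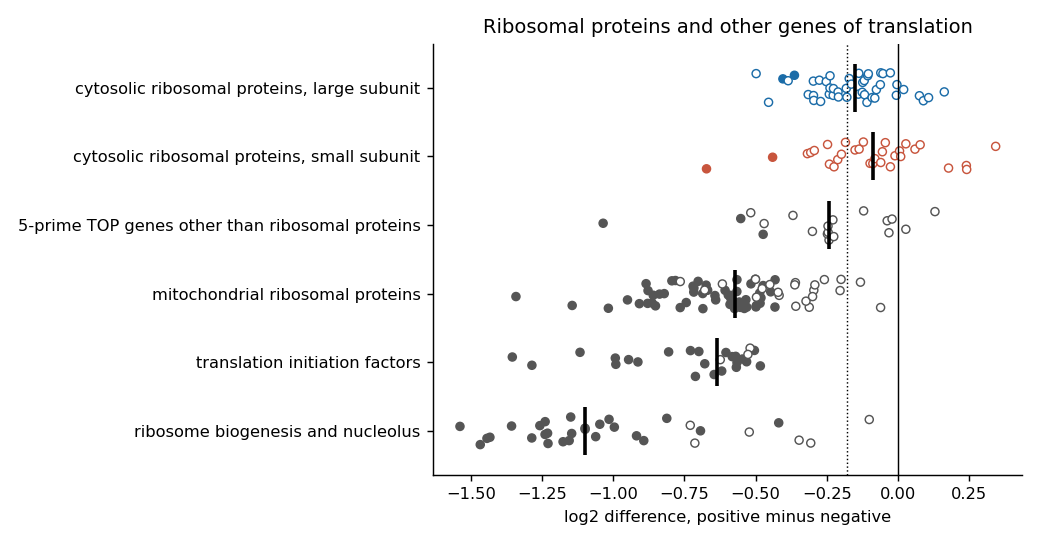
Log2 difference, positive minus negative, of each gene tested in 6 lists; filled points passed an adjusted p of 0.05, black bars are medians and the dotted line is the median of all genes, -0.18. Cytosolic ribosomal proteins gather between -0.67 and 0.34, and genes of ribosome biogenesis have a median of -1.10.

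Lists closer to the members were also examined. Of 20 other genes with TOP messenger RNAs, which share the pyrimidine start with the members, 3 were lower and 17 not called. Their share of 15% lay below the 24.4% of all genes called lower, and their median was -0.24. The 3 were Eef1d (-1.04), Eif3l (-0.55) and Nap1l1 (-0.47). Of 7 tested ribosomal proteins and paralogs whose names fall outside the rule, Rpl7l1 (-0.81) and Rpl36al (-0.76) were lower (28.6%, against 24.4% of all genes) and 5 were not called, among them Rack1 (0.06) and Fau (-0.03).

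Of 14 regulators of ribosomal protein synthesis 6 were lower (42.9%, against 24.4% of all genes), and 3 after quantile normalization or without positive replicate 3 or negative replicate 3. Mycn, a Myc family activator of ribosome genes in embryos, read 3.01, 2.63 and 2.46 against 4.65, 4.70 and 5.09 (a fall of 2.11 ± 0.20, SE, limma adjusted p = 0.0010). Larp1, which binds TOP messenger RNAs, fell by 1.20 and Eif4ebp1, a repressor of initiation under mTORC1, by 1.17. Among 12 genes around the 5S particle and p53, Cdkn1a (-2.04) and Trp53 (-0.63) were lower (16.7%, against 24.4% of all genes). The median of the 12 was -0.16, beside -0.18 over all genes. The member Rps27l was also lower, and a link between its fall and p53 was not tested. For Cdkn1a, 1 positive array of 3 did not rise above background, so it passed the filter only through the negative group, where it is high. Among genes above background on all 6 arrays, 1 of 11 on this list was lower, beside 3191 of all 11771. Sesn1 was higher (0.37, limma adjusted p = 0.044), a call that was lost with the slide as a block (0.051) and without any array other than positive replicate 1. Of 5 tested snoRNA host genes 3 were lower (60%, against 24.4% of all genes) and Snhg11 was higher.

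Markers of other cell types were also unequal, as sums of the tested markers' levels in multiples of the array's 75th percentile. For 5 ectoderm markers of 7 the sum was 22.2 to 36.6 on positive arrays and 9.17 to 11.53 on negative arrays. The sum hides that 2 of these 5 had a negative difference, and only 3 of them were above background on all 6 arrays. For 4 muscle precursor markers of 6 it was 0.12 to 0.18 against 0.58 to 1.29. None of these 4 was above background on all 6 arrays, and they passed the filter through the negative arrays, where they are high, so no count of calls is read from them. For 5 red blood cell markers of 7 it was 1.87 to 4.69 against 2.23 to 39.1, highest on negative replicate 2. None of the 5 was called, but with the slide as a block 2 were lower, Hbb-bt (limma adjusted p = 0.0053) and Hba-a1 (0.025). For 2 macrophage markers of 6 it was 1.34 to 2.61 against 0.59 to 13.99, again highest on negative replicate 2. For 2 Schwann cell precursor markers of 5 it was 1.25 to 1.44 against 0.92 to 0.96, and for 2 endothelial markers of 6 it was 2.75 to 7.84 against 1.85 to 4.69. Only 1 of the 2 Schwann cell precursor markers and 1 of the 2 endothelial markers were above background on all 6 arrays. The part of these cell types in the ribosomal protein values was not tested.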

How the data were processed

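The data are 6 Agilent 60-mer arrays, hybridised with Cy3-labelled RNA and read with Agilent Feature Extraction 10.7.3.1, per the file headers. The authors deposited each array's processed signal, a background-corrected intensity. They also deposited a table of normalized log2 values, whose normalization method no source used here names. Control and outlier spots were left out, intensities were taken as log2 minus the array's 75th percentile over 59305 non-control spots, and replicate spots were averaged. A probe was kept if every array of 1 group or the other flagged it well above background (26473 probes). The brightest probe stood for a gene, and limma 3.58.1 in R 4.3.3 tested 13197 genes, with Benjamini-Hochberg adjustment. Flags of background and saturation were used as deposited by the authors. With 3 arrays a group, their number limits the precision. On simulated arrays of this design, limma found 27 of 50 genes changed 2-fold and 5 of 50 changed 1.5-fold. The simulation shuffled the spreads between genes and changed far fewer of the 13197 genes than limma called in the data. These shares therefore do not measure how often the main fit finds such changes.

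Genes named one by one were Sox9, members listed by role or as paralogs, called members, members not above background, and up to 4 genes of each other list with the smallest adjusted p. Rpl27, Rpl21, Rack1, Fau, and the genes of the probe and slide comparisons were named after their values were seen. Members and lists were chosen with earlier results of these data known. One member and its probes are counted with the others but are not reported here by name.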

Additional observations from a re-analysis of the deposited data

How the results depend on the processing

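Sox9 kept its direction and its call under every alternative run, at 3.91 to 4.56. No ribosomal protein gene was called higher under any alternative, and the moderated trend gave the same 4 calls. No spot was saturated on any array, so choosing the brightest unsaturated probe only repeated the main fit. Large and small subunit genes called lower (2 and 2) numbered 0 and 0 after quantile normalization, after centring, with no filter, with the replicate block and at 0.01. They numbered 1 and 2 with normexp and quantile normalization, 5 and 5 with the mean of probes, 18 and 8 with array weights, and 1 and 1 with the slide block. With array weights 33.8% of the 77 members were called lower, beside 4665 of the 13197 genes. The low share of members in the main fit was thus not kept there. With the mean of probes 12.99% were called lower, beside 2978 of the 13197 genes, and with the slide block 2.6%, beside 3598. Leaving out 1 array gave 0 (without positive replicate 3 or any negative replicate) to 7 (without positive replicate 1) large and 0 to 3 small subunit genes. Without slide 1, an alternative chosen after seeing the data like that on slide 1 probes, the counts were 4 and 3. Over all genes 3985 of 13197 were called lower in that setting, and the small subunit median was -0.27. Leaving out 1 array moved that median between -0.29 (without positive replicate 1) and 0.075 (without positive replicate 3).

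The member probes called lower, 9 in the main fit, numbered 5 after quantile normalization, 1 with no filter and 15 with the trend. They numbered 43 with array weights, 1 with the replicate block, 3 at 0.01 and 1 to 15 with 1 array left out. The share over all probes was counted only in the main fit (13.7%), so these changes are not read as particular to the members. Calls over all genes moved too, with 4665 of 13197 lower with array weights and 1301 with the replicate block. With normexp and with the deposited values 1 probe was higher. The ratio of Rps27l to Rps27 changed by -0.45, -0.36 and -0.36 with quantile normalization, normexp and the deposited values, and by -0.79 to -0.65 with 1 array left out. Rpsa turned to -0.42 with the mean of probes.

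Over all genes, calls higher were 856 with the replicate block, 743 at 0.01 and 869 to 1851 with 1 array left out. Calls lower were 1759 with quantile normalization, 1901 with normexp, 1910 with the deposited values, 1574 with no filter, 1301 with the replicate block, 1366 at 0.01 and 1526 to 3377 with 1 array left out. Higher calls made up 45.3% after centring, 44.7% with normexp, 44.6% with the deposited values and 40.7% with no filter. The deviations of same-numbered arrays from their group means correlated at r = -0.27, -0.42 and 0.16 across genes. Those of arrays on 1 slide correlated at r = 0.46, 0.36 and 0.23. Deviations within a group are tied through its mean, so these correlations constrain one another. They cannot show whether same-numbered samples were paired.

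For the other lists, in the order quantile normalization, normexp, deposited values, no filter, replicate block and 0.01, initiation factors called lower numbered 8, 10, 10, 9, 8 and 9, and mitochondrial ribosomal proteins 20, 23, 23, 26, 17 and 24. With 1 array left out they numbered 10 to 23 and 24 to 58. The other TOP genes numbered 1 in each of these 6 settings, 5 with the mean of probes, 8 with array weights, 6 without slide 1 and 1 to 6 with 1 array left out. Assembly genes numbered 22 to 29 throughout. The cause of these changes was not tested. The regulators of ribosomal protein synthesis called lower, 6 of 14, numbered 3 in each of the same 6 settings, 4 after centring, 8 with array weights and 3 to 5 with 1 array left out. The number of arrays limits the precision.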
